A study of Homo sapiens with 4 samples.

Results

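Interferon-stimulated genes were examined as a set of 46 genes, chosen by name, in a list of PML binding sites from MDA-MB-231, a widely used human cell line grown from a triple-negative breast cancer. A gene was taken to have a peak when the deposited annotation named it as the nearest gene of that peak. By this rule 26 of the 46 genes had at least 1 peak (56.5%, against 69% of RefSeq protein-coding genes). These 26 genes together held 63 of the 68937 peaks of the list. PML was immunoprecipitated from cross-linked cells in 2 ChIP libraries, set against 2 input libraries of the same line. The labels name no interferon or other treatment and no second condition. The duplicates were merged by the authors into 1 peak list, so that no value has a replicate error, and read depth is unknown from the table. Peaks are scored by the authors with a whole number that runs from 13 to 5641 in this list; the sources used here do not give its scale, and it serves below only to rank peaks within the list. The table holds no expression, so the cell line could not be checked against marker genes.

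Interferons are secreted proteins that cells release on viral infection. Their receptors activate kinases of the JAK family, such as JAK1 and TYK2, which phosphorylate STAT proteins. A complex that holds STAT2 and IRF9 then binds the interferon-stimulated response element (ISRE) in the promoters of its target genes. The gamma-activated site (GAS) is another element of such promoters. The induced proteins block viral entry, degrade or sense viral RNA, and halt translation. PML is itself an interferon-induced gene, and the nuclear bodies that PML builds have been linked to antiviral defence.

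Upstream sequences of 8 members are given here because they show the same response element in stretches with and without a PML peak over them. Each is the 200 bases before a gene start in RefSeq (GRCh38.p14, the hg38 assembly), written 5′ to 3′ on the strand of the gene, and capitals mark each match to the ISRE core GAAANNGAAA on either strand. At the starts of ISG20, PARP14, PARP9 and HERC5 a peak covered all 200 bases.
ISG20 (chr15:88638816-88639015, + strand): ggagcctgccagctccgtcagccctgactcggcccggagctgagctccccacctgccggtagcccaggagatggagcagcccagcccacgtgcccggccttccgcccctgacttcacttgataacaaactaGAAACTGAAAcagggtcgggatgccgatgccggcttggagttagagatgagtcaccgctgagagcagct
PARP14 (chr3:122680639-122680838, + strand): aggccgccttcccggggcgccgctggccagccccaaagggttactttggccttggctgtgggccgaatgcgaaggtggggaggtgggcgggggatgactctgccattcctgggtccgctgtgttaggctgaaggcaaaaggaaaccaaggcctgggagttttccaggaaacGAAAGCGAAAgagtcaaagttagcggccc
PARP9 (chr3:122564301-122564500, - strand): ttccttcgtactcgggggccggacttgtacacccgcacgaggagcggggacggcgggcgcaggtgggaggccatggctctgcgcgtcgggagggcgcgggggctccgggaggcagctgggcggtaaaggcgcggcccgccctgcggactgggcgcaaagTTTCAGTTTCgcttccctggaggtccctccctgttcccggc
HERC5 (chr4:88456919-88457118, + strand): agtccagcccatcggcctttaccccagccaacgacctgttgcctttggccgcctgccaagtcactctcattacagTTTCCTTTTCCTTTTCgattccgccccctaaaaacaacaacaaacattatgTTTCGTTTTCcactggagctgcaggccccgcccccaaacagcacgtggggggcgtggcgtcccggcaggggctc
At the starts of ISG15, IFIT1, IFI44L and OAS3 no peak overlapped these bases.
ISG15 (chr1:1013297-1013496, + strand): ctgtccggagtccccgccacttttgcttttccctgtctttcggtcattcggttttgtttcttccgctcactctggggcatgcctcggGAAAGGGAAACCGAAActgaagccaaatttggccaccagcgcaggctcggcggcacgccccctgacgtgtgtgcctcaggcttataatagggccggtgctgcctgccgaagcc
IFIT1 (chr10:89392423-89392622, + strand): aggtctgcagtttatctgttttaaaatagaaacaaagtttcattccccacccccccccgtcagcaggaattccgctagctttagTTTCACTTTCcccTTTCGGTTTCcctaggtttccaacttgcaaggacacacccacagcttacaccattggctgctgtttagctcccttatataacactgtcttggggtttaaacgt
IFI44L (chr1:78620248-78620447, + strand): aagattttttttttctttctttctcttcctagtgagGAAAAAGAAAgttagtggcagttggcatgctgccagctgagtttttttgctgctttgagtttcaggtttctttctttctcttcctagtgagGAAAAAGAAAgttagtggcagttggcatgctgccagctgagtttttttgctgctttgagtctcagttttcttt
OAS3 (chr12:112938274-112938473, + strand): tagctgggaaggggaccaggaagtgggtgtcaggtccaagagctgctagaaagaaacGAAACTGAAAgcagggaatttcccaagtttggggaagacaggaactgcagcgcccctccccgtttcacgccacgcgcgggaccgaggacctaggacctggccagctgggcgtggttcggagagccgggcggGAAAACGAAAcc
The PARP9 stretch lies in the promoter that PARP9 shares head to head with DTX3L. The IFI44L stretch holds the same 10 letters, GAAAAAGAAA, at 2 places, and the PML list had no peak within 100 kb of this gene's start.

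PML peaks lay near the TSS of 20 of the 46 interferon-stimulated genes. These genes were named by a promoter peak, meaning one whose centre is at most 1000 bp from a TSS (43.5%, exact Clopper-Pearson 95% interval 28.9 to 58.9%, which covers counting error only). The same held for 54.5% of the 20037 RefSeq protein-coding genes on the chromosomes, a share inside that interval. Any peak at all was assigned to 26 of the 46 genes (56.5%, interval 41.1 to 71.1%), against 69% of RefSeq protein-coding genes. Among genes that the table names, which all have a peak somewhere, 20 of 26 members had a promoter peak (76.9%, interval 56.4 to 91.0%), against 78.6% of 13948 protein-coding genes. Shares under other rules lay below those of all protein-coding genes too. Within 500 bp of a TSS 17 members had a peak (37.0%, against 49%), and within 5000 bp 23 (50%, against 60.2%). With the annotation column also used, which adds PARP9, 21 members had a promoter peak (45.7%, against 58%). A peak overlapped 1000 bp on either side of either gene end in 23 members (50%, against 63.4%), a rule added after the data were seen, and overlapped the gene body in 24 (52.2%, interval 36.9 to 67.1%, against 70.8%, which lies outside the interval). Among peaks that scored above the list median of 34, 20 members had any peak (43.5%, against 55.9%) and 17 a promoter peak (37.0%, against 44.5%). Among the 5000 highest-scoring peaks, 7 members had any peak (15.2%, against 18.6%) and 6 a promoter peak (13.04%, against 16.2%). No test was made of these differences, since the genes are not replicates and come from 1 merged list.

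The 20 genes with a promoter peak were ADAR, CMPK2, DTX3L, HERC5, HERC6, IFIH1, IFIT5, IFITM3, IRF1, IRF7, IRF9, ISG15, ISG20, MX1, NMI, OASL, PARP14, RNF213, SAMHD1 and TAP1. Another 6 genes, BST2, GBP2, IFI6, IFITM1, SAMD9 and USP18, had peaks farther from a TSS only. The table named no peak for EIF2AK2, GBP1, IFI16, IFI27, IFI35, IFI44, IFI44L, IFIT1, IFIT2, IFIT3, IFITM2, MX2, OAS1, OAS2, OAS3, PARP9, RSAD2, SAMD9L, STAT2 and XAF1. A single peak was assigned to 14 members, 2 peaks to 4, from 3 to 5 peaks to 5, and 6 or more to 3 members. In RefSeq protein-coding genes these classes held 29.2%, 12.9%, 15.6% and 11.2% of genes.

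The median promoter score of members was close to that of other genes, with a wide spread around it. The highest promoter score had a median of 61 over the 20 members, ranging from 17 to 194, against a median of 63 over the 10958 protein-coding genes with a promoter peak. Of the 20 members, 8 lay above that median, 6 above the upper quartile of 106 and 7 below the lower quartile of 40. The peaks were 616.5 bp wide at the median in members, against 798 bp in all protein-coding genes with one. They lay 143.5 bp from the TSS at the median, against 172 bp.

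**Figure D1:**
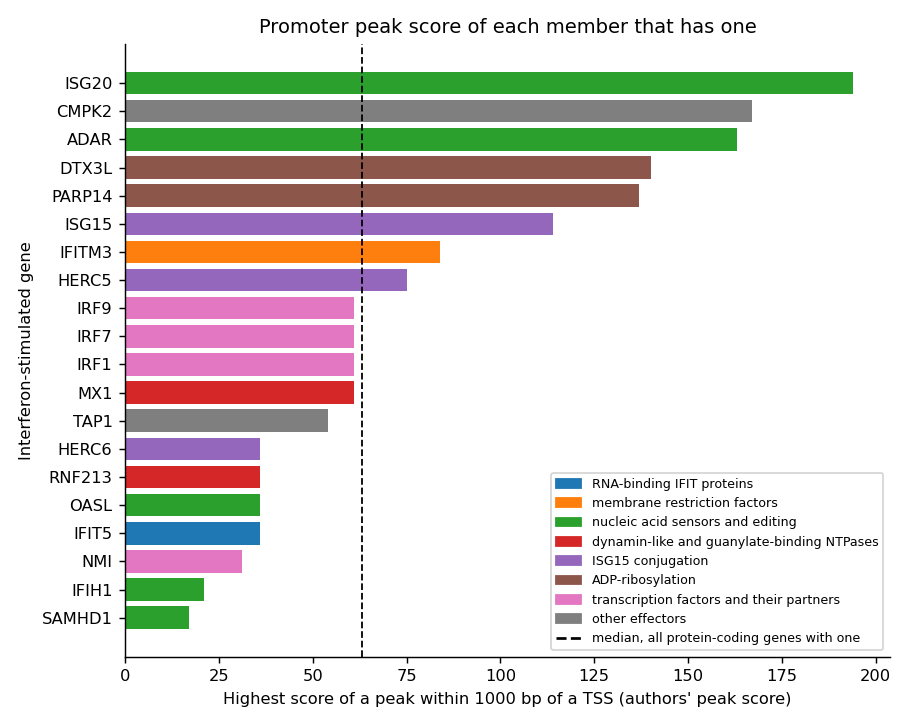
Highest score of a PML peak within 1000 bp of a TSS, for each of the 20 interferon-stimulated genes that had one; bars are coloured by role and the dashed line is the median of 63 over all protein-coding genes with a promoter peak. ISG20, CMPK2 and ADAR reach 194, 167 and 163, and 12 of the 20 genes lie below the line.

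The 3 highest promoter scores of the set were those of ISG20, CMPK2 and ADAR. ISG20, a 3′ to 5′ exonuclease that degrades single-stranded RNA, had its promoter peak at chr15:88638488-88639444 with a score of 194 and rank 931 of the 68937 peaks. It was centred 50 bp upstream of the TSS and covered the ISRE core of the printed sequence. CMPK2, a mitochondrial nucleotide kinase, had a peak at chr2:6864980-6866495 with a score of 167 and rank 1453. ADAR, which deaminates adenosine to inosine in double-stranded RNA, had a pair of promoter peaks. The higher lay at chr1:154607672-154608445 over a 5′ UTR, with a score of 163 and rank 1566. The other lay at chr1:154627253-154628053 in intron 1 and on a CpG island, with a score of 77.

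The lowest promoter scores were those of SAMHD1 and IFIH1, and the synthetases OAS1, OAS2 and OAS3 were named by no peak. The promoter peak of IFIH1 (MDA5), a sensor of long double-stranded RNA, scored 21, and that of SAMHD1, a dNTP triphosphohydrolase, scored 17. OASL, a catalytically inactive relative of the oligoadenylate synthetases, had a promoter peak that scored 36, and 5 further peaks between 13 and 29. The genes of these synthetases, whose products activate RNase L, lie side by side on chromosome 12 from 112906962 to 113011723. No peak of the list lay in these 104.8 kb or within 10 kb of either side. The kinase EIF2AK2 (PKR) and the DNA sensor IFI16 had no peak either: the nearest peaks lay 39.5 kb and 46.3 kb from the RefSeq starts used here. The IFI16 gene begins upstream of those starts, at position 158999976 on chromosome 1, and so nearer to that peak. In all, 5 of the 10 genes for sensing, editing and degrading nucleic acids had a promoter peak (50%, against 54.5% of all protein-coding genes), with scores from 17 to 194.

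Promoter peaks were named for 2 of the 3 genes for ADP-ribosylation, against 54.5% of all protein-coding genes. They were also named for 3 of the 4 genes linked to ISG15 (ISG15, HERC5, HERC6 and USP18), against the same 54.5%. DTX3L, a ubiquitin ligase that pairs with PARP9, had a peak at chr3:122564174-122564785 with a score of 140 and rank 2237. That peak was assigned to DTX3L but annotated as the promoter of a PARP9 transcript, and it overlapped the start of PARP9, which is named by no peak of its own. PARP14, an ADP-ribosyltransferase at the other end of the same locus, had a peak at chr3:122680572-122681421 in exon 1, with a score of 137 and rank 2391. A further PARP14 peak, with a score of 36, was centred 1002 bp upstream and so just outside the promoter window. With that 1 shared peak counted for both DTX3L and PARP9, all 3 genes of this group had a PML peak at the start. Of all 15843 protein-coding genes with a RefSeq start, 65.1% had a peak overlapping 1000 bp on either side of it.

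ISG15, the ubiquitin-like modifier, had a peak at chr1:1013844-1014445 with a score of 114 and rank 3450. It lay in exon 2, centred 647 bp downstream of the TSS, and began 347 bp past the start, so that it did not reach the ISRE cores of the printed sequence. HERC5, the main ligase for ISG15 in human cells, had a peak at chr4:88456663-88457593, centred 9 bp from the TSS, with a score of 75 and all 3 of its ISRE cores inside. HERC6, a relative next to it, had a promoter peak that scored 36. USP18, the protease that removes ISG15, had no promoter peak. Its 1 peak, with a score of 28, lay 5451 bp downstream in intron 1 on an LTR12C element, at chr22:18155449-18155793. USP18 has near-identical copies elsewhere on chromosome 22, and the sources used here do not say how reads were divided among them.

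CMPK2 and RSAD2 formed a second shared start. RSAD2 (viperin) makes a nucleotide analogue that stops viral polymerases, and it was named by no peak. Its start at position 6865885 on chromosome 2 lay inside the CMPK2 peak with the score of 167. PARP9 and RSAD2 were the 2 members whose start or body was overlapped by a peak that the table gave to another gene. Counting every peak that overlapped 1000 bp on either side of a RefSeq start, 20 of the 38 members with such a start had one (52.6%), against 65.1% of 15843 protein-coding genes.

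Among transcription factors, IRF1, IRF7 and IRF9 each had a promoter peak that scored 61, at the tied rank 11218. The IRF1 peak, at chr5:132489999-132491545, was the widest of the members' promoter peaks at 1547 bp and was centred 1 bp from the TSS. The IRF9 peak, at chr14:24160694-24161268, lay 284 bp upstream. The IRF7 peak, at chr11:614495-615972, was centred 717 bp downstream in exon 3 and reached over the gene start at position 615950. A second IRF7 peak with a score of 75 lay 2550 bp downstream in exon 8. The promoter peak of NMI, a partner of STAT proteins, scored 31. STAT2 had no peak within 43.6 kb of its start, and IFI35, the partner of NMI, had none within 7.98 kb of its own start.

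The IFIT genes, whose products bind RNA ends that lack the host cap modification, had 1 peak between them. It was assigned to IFIT5, lay in intron 1 on a CpG island with a score of 36, and began 387 bp past the start. The locus from IFIT2 to IFIT5 on chromosome 10 spans 119 kb and held no other peak. The nearest peaks lay 22.3 kb and 76.5 kb from the RefSeq starts of IFIT1 and IFIT3. The IFIT1 gene extends from its start toward the IFIT5 peak, to position 89406487, and so ends nearer to it.

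**Figure D2:**
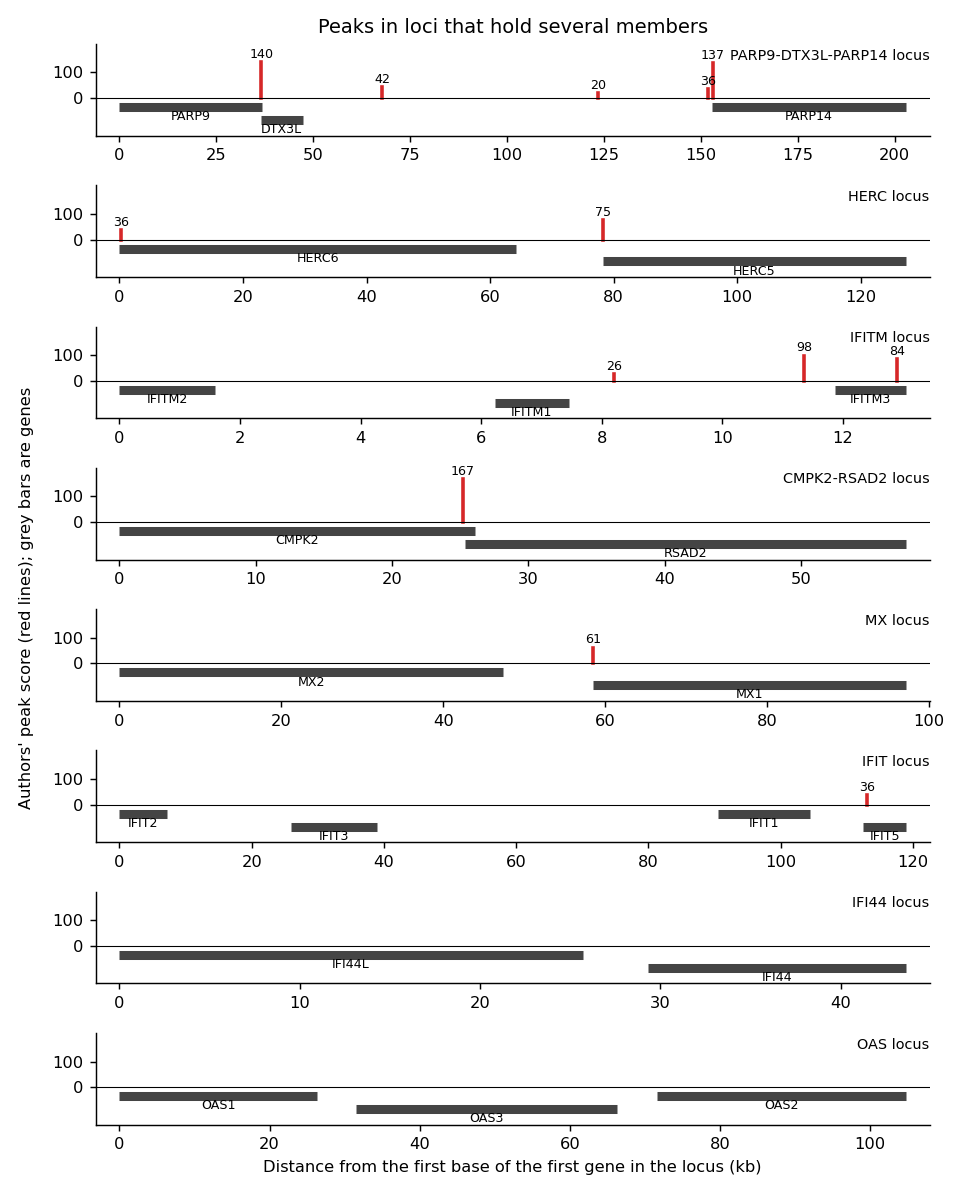
PML peaks (red lines, height is the authors' score) and genes (grey bars) in 8 loci that hold several members; the horizontal axis is the distance in kb from the first base of the locus. Peaks sit over the shared starts of PARP9 with DTX3L and of CMPK2 with RSAD2, the IFIT locus has 1 peak, and the IFI44 and OAS loci have none.

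Membrane restriction factors differed from gene to gene. IFITM3, which blocks fusion of viruses in endosomes, had a promoter peak at chr11:320152-321277 with a score of 84 over its start, and a second peak with a score of 98 at its 3′ end. IFITM1 had 1 peak, with a score of 26, at chr11:315734-316301 beyond its 3′ end, centred 1977 bp from the TSS. IFITM2 had none. These 3 genes are close copies of each other on chromosome 11, so their assignment is uncertain where reads could map to more than 1 copy. BST2 (tetherin), which holds budding virions on the cell surface, had 2 peaks, both intergenic and over 10 kb downstream, the higher at chr19:17391837-17392477 with a score of 42.

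Of the 7 NTPases and their relatives, MX1, RNF213 and GBP2 had peaks (42.9%, against 69% of all protein-coding genes). MX1 and RNF213 had promoter peaks (28.6%, against 54.5%). MX1, a dynamin-like GTPase that traps viral nucleocapsids, had a peak at chr21:41420250-41420870 with a score of 61, centred 2 bp from the TSS. Its neighbour MX2 had none, and the MX1 peak was the nearest, 10.9 kb from the near end of MX2. RNF213, a giant AAA ATPase and ubiquitin ligase, had 5 peaks, none above 36. GBP2, a guanylate-binding protein, had 1 peak with a score of 68 at chr1:89128048-89128552, centred 2186 bp upstream on an LTR12C element. GBP1 was 62.8 kb from that peak. The starts of IFI44 and IFI44L lay 158.2 kb and 128.9 kb from the nearest peak.

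The remaining effectors were mixed. TAP1, a subunit of the peptide transporter for antigen presentation, had a promoter peak that scored 54 and that the annotation column gave to a transcript of PSMB9, the immunoproteasome gene opposite it. IFI6, a small mitochondrial and endoplasmic reticulum protein, had no promoter peak but 2 peaks with a score of 77 inside the gene, at chr1:27668184-27668528 in exon 4 and chr1:27669013-27669397 in intron 2. SAMD9 had 1 distant peak with a score of 31 at chr7:93039508-93039779, 78336 bp downstream on a MER52A element. SAMD9L, XAF1 and IFI27 had none, with nearest peaks at 108.6 kb, 114.2 kb and 15.3 kb from their starts.

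Starts far from any peak made up a larger share of members than of all genes. The nearest peak was over 100 kb from every RefSeq start in 6 of 38 members (15.8%), namely IFI44, IFI44L, OAS1, OAS3, SAMD9L and XAF1, against 7.98% of protein-coding genes. At over 10 kb these counts were 15 of 38 (39.5%) and 25.4%. The difference was not tested, and IFI44 with IFI44L, and OAS1 with OAS3, are neighbours that share the same surroundings.

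Peaks away from promoters scored lower than promoter peaks, in members as in the whole list. Of the 63 member peaks, 22 lay within 1000 bp of a TSS, 20 between 1000 and 10000 bp, and 21 over 10000 bp away (33.3%, against 58.1% of all peaks). The 22 promoter peaks had a median score of 61, and the 41 others a median of 30, against 58 and 31 in the whole list. ADAR had 10 peaks and ISG20 had 7. Of the ADAR peaks, 3 lay in introns of the potassium channel gene KCNN3, from 81019 to 114159 bp upstream. Farther than 1000 bp from a TSS, a single peak exceeded a score of 100. It was assigned to PARP14, 52516 bp downstream of the TSS, at chr3:122732953-122733757 on an L1PA4 element, with a score of 101.

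LTR elements were named for 8 of the 63 member peaks (12.7%, against 9.36% of all peaks). LTR12C, a retroviral promoter of the ERV1 class, was named for 4 of them (6.35%, against 1.41%), a family singled out after the values were seen. These were the peaks at GBP2 and USP18 and a pair 42772 and 50183 bp upstream of ADAR, with scores of 61 and 29. The pair belongs to 1 gene, and reads from repeats can map to several copies.

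**Figure D3:**
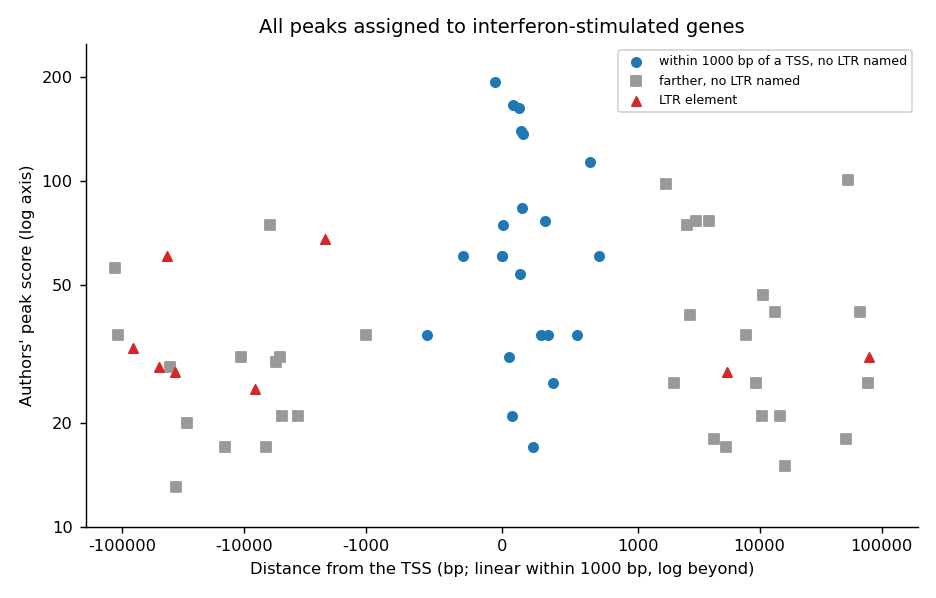
Distance from the TSS (bp, linear within 1000 bp and log beyond) and authors' score (log axis) of the 63 peaks assigned to members; circles are promoter peaks, squares are farther peaks and triangles are peaks on LTR elements. The scores above 101 all belong to promoter peaks, and the LTR peaks lie between 25 and 68.

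The response element was about as frequent in members with a peak as in members without one. RefSeq windows of 300 bp, from 250 bases before to 50 after a start, were on hand for 38 of the 46 members. The ISRE core GAAANNGAAA occurred on either strand in a window of 25 of these 38 (65.8%), against 4.16% of 15843 protein-coding genes. It was in the windows of 11 of 17 members with a peak over a window (64.7%) and of 14 of 21 without one (66.7%). RSAD2 counts among these 11 although its core and its peak lie at different starts, and DTX3L and PARP9 share 1 core and 1 peak. Read the other way, 11 of 25 members with the core had a peak over the window (44%), against 44.8% of all genes with the core, and 6 of 13 members without it (46.2%), against 57.9% of all genes without it. A peak overlapped the window in 57.4% of all 15843 genes. In 10 members an ISRE core lay wholly inside a peak, with DTX3L and PARP9 both counted for their shared core. The share of all genes with a core inside a peak is not given here, so this count has no comparison. The GAS core TTCNNNGAA occurred in 11 of 38 members (28.9%, against 8.98%), and in 4 of them it overlapped an ISRE core. The letters ACTACA, the core bound by RONIN, occurred in 1 member window, that of STAT2 (2.63%, against 10.4%). A match to such letters describes a sequence and is not evidence of a bound site.

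The CpG ratio was higher in members with a peak over a promoter window than in members without one. This ratio is the number of CG pairs over the number that the C and G content would give. Each gene was given the median over its windows, so windows without a peak enter the value of some members with one. For RSAD2 it joined 1.06 at the start under the peak with 0.23 at the other start. The ratio had a median of 0.65 in the 17 members with a peak and 0.27 in the 21 without one. The GC content was 60.7% and 47.7%. Over all protein-coding genes the medians of the CpG ratio were 0.84 with a peak and 0.40 without. All protein-coding genes with a window were divided by their value into 3 classes of equal size, at CpG ratios of 0.56 and 0.85. Of the members, 18 fell in the low class, 16 in the middle class and 4 in the high class. In the low class 3 of 18 members had a peak (16.7%, against 21.8% of all genes), in the middle class 11 of 16 (68.75%, against 68.9%), and in the high class 3 of 4 (75%, against 81.5%). The members with a peak in the low class were IRF9, IFITM3 and ISG20, and the member without one in the high class was IFIT5, whose peak begins beyond its window. The part of CpG content in the members' share of peaks was not tested.

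**Figure D4:**
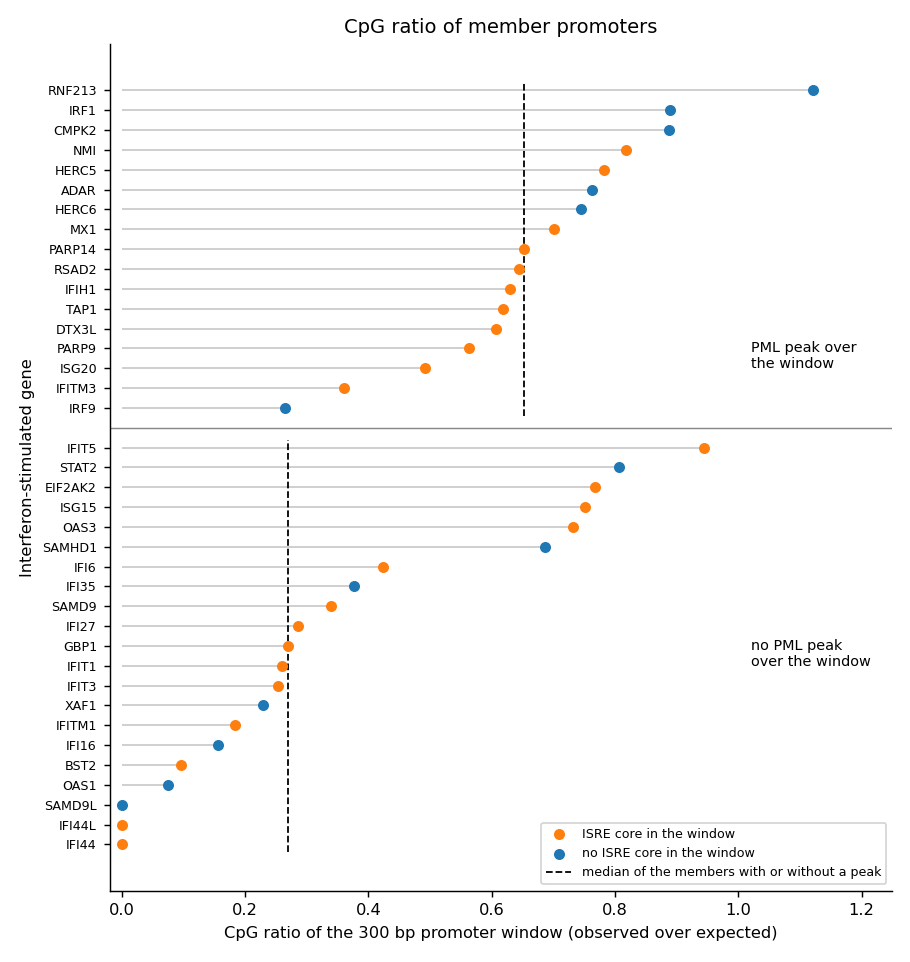
CpG ratio of 38 members, each the median over the gene's 300 bp promoter windows, with a PML peak over a window (upper part) and without (lower part). Orange marks members with an ISRE core in a window, and dashed lines are the medians, 0.65 and 0.27. Members with and without the ISRE core are found in both parts, and IFI44, IFI44L and SAMD9L have a ratio of 0.

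Gene length differed little between members with and without a promoter peak. The 20 members with a promoter peak had a median length of 21.2 kb, and the 26 without one 18.5 kb, against 32.4 kb and 16.3 kb in all protein-coding genes. Whether this differs between members and all genes was not tested.

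Other genes of the interferon pathway, both upstream and downstream of the interferons, were counted from 6 lists. Of these 57 genes 32 had a peak (56.1%, against 69%) and 25 a promoter peak (43.9%, against 54.5%), and the differences were not tested. The 21 ligand genes were part of this count, and only 3 of them had any peak (14.3%) and 1 a promoter peak (4.76%). In each of the other lists at least 75% of genes had a peak. Their promoter shares ran from 50% of the sensing genes to 100% of the listed signal transducers. The 4 genes listed as signal transducers, which leave out STAT2 as a member, each had a promoter peak, led by JAK1 with a score of 186 and JAK2 with 159, while TYK2 and STAT3 had 48 each. Of 6 receptor subunits 5 had one, with 114 at IFNGR2 and 68 at IFNAR1, and IFNLR1 was named by no peak. Among 12 sensing and relay genes 6 had one, with 138 at CGAS, the sensor of cytosolic DNA, and 104 at MAVS. IRF3, a factor that switches on interferon genes, was named by no peak. Of 6 negative regulators 4 had a promoter peak, with 83 at SOCS3 and 75 at SOCS1. Of 8 antigen presentation genes 5 had one, with 82 at B2M. PSMB9 was counted without one, because the peak annotated to its transcript was assigned to TAP1.

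Few of the interferon genes themselves were named by a peak. Of 21 ligand genes 3 had any peak (14.3%, against 69% of all protein-coding genes) and 1 a promoter peak (4.76%, against 54.5%), and these differences were not tested. IFNA14 had the promoter peak, with a score of 31, at chr9:21239637-21239913, and IFNL1 and IFNL3 had 1 peak each outside the promoter window. IFNB1 and IFNG were named by no peak. Interferon alpha genes are close copies of each other in 1 cluster, so the assignment of the IFNA14 peak is uncertain, and the copy number of this cluster in the cells was not analysed here.

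**Figure D5:**
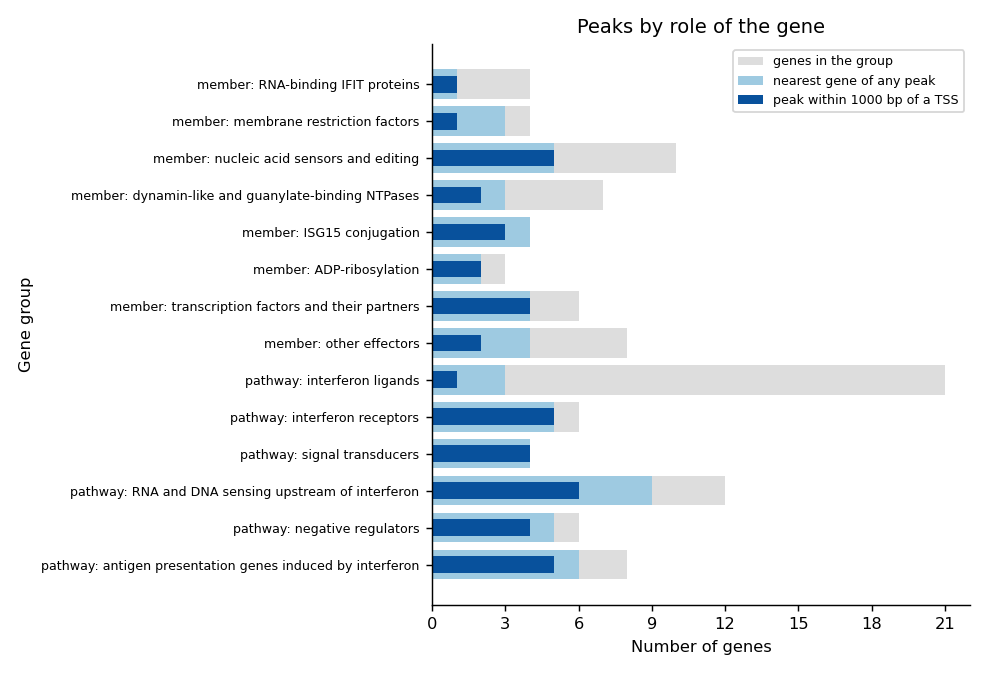
Number of genes in each role group of the members and of the interferon pathway (grey), number named as nearest gene of any peak (light blue) and number with a peak within 1000 bp of a TSS (dark blue). A promoter peak was named for 4 of 4 listed signal transducers, 5 of 6 receptors, 1 of 4 IFIT genes and 1 of 21 ligand genes, and for 54.5% of all protein-coding genes.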

How the data were processed

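PML ChIP-seq libraries (2) and input libraries (2) of MDA-MB-231 cells were merged by the authors into 1 peak list, per the labels. The submitters' processing notes list MACS2 2.1.1.20160309, HOMER 4.11.1, BWA 0.7.12, Trimmomatic 0.36, Picard 2.0.1 and hg38, without settings. The deposited table gives each peak a whole-number score, a position and a distance to the nearest TSS in bp, per the file headers; the sources used here do not give the peak threshold, and read depth is unknown.

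Members and gene lists were chosen with earlier results of these data known. Genes were matched to RefSeq (GRCh38.p14) by gene ID; all 46 members matched, and 38 had a promoter window. A gene of the pathway lists is not reported here. Distances follow the deposited column, a negative one being upstream. Overlap needed at least 1 bp. The overlap and motif searches were tested on simulated data. Positions were given for the 12 highest promoter scores, for members with distal peaks only and for starts under another gene's peak. No test was run, since 1 merged list leaves no replicate error. Alternatives changed the gene assignment, the promoter window and the peaks kept. Calculations used Python 3.11.15, pandas 2.3.3, numpy 2.4.6 and scipy 1.17.1.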

Additional observations from a re-analysis of the deposited data

How the results depend on the processing

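With the 5000 highest-scoring peaks alone, the number of members with any peak was 7 in place of 26 and the number with a promoter peak 6 in place of 20, against 18.6% and 16.2% of RefSeq protein-coding genes; fewer peaks were kept by construction. Under the other alternatives the promoter count ran from 17 (500 bp window, or scores above the list median of 34) to 23 (5000 bp window, or either gene end, added after seeing the data), and the members' share stayed below that of all genes in each. The median promoter score was 61 with the 500 and 5000 bp windows and 68 with peaks overlapping 1000 bp on either side of a RefSeq start. This last rule counts the DTX3L peak (score 140) for PARP9 too, and the CMPK2 peak (score 167) for RSAD2 too. IFIT5, IRF7 and ISG15 had no peak centred within 500 bp of a TSS. No paired analysis was possible because the duplicates were merged into 1 list. Intervals and shares cover counting error only, and peaks below the authors' threshold cannot be seen in the list.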
